A study of Mus musculus with 6 samples.

Results

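N6-methyladenosine (m6A), a methyl mark on internal adenosines of messenger RNA, was followed here through the transcripts of 10 of the proteins that place, remove or bind it. The 10 genes were chosen by symbol from 52249 gene rows in the count table: the writers Mettl3, Mettl14, Wtap and Virma, the YTH-domain readers Ythdf1, Ythdf2, Ythdf3 and Ythdc1, and the erasers Alkbh5 and Fto. All 10 passed the filter on low counts. Their transcripts were counted from the 3′ end in 6 libraries, each made from 500 ng of total RNA. The material was mouse intestinal organoids, which are small epithelial bodies grown from stem cells in culture. The labels place 3 libraries in the genotype Apc-knockout and 3 in the genotype Apc-knockout with IGF2BP3 overexpression (IGF2BP3 OE). The loss of Apc, which restrains WNT signalling, was thus shared by both groups, and no library with intact Apc was compared. The labels name no animal, clone, promoter or vector, and do not say whether the 3 libraries of a group came from separate cultures, so that p-values measure only the spread between these libraries.

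The m6A mark is laid down in the nucleus by a writer complex in which METTL3 carries the catalytic site, METTL14 holds the RNA, and WTAP and VIRMA anchor and position the pair. Readers with a YTH domain bind the mark: YTHDC1 acts in the nucleus on splicing and export, and the YTHDF proteins act in the cytoplasm on decay and translation. ALKBH5 and FTO can remove the methyl group. IGF2BP3, the protein that the labels give as overexpressed in the second group, is an RNA-binding protein described as an m6A reader that stabilises its targets, and the study links it to MYC. In the intestinal epithelium the m6A machinery is known for its part in stem cell maintenance.

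Libraries held 2180116 to 2519917 counts in all, so that 3 counts, taken as the detection floor, correspond to a level between 1.18 and 1.41 CPM, the count scaled to library size. Reads without molecular identifiers are not independent molecules, so this floor covers counting error only. Igf2bp3 had 1, 0 and 0 counts in the Apc-knockout and 1, 0 and 0 counts in the IGF2BP3 OE libraries, so that its counts gave no check of the label, and "OE-labelled" is used below. The labels do not describe the construct. Apc itself was counted at 80.4 ± 4.3 CPM in Apc-knockout and 62 ± 2.37 CPM in OE-labelled organoids (SD, n = 3). It was called lower (log2 fold change -0.37, edgeR adjusted p = 0.0323), a call lost in 9 of 20 alternative fits (edgeR, DESeq2 or limma adjusted p as high as 0.733). Without wild-type libraries the level of Apc checks nothing. Library names, total counts (none shared between the ranges of the groups) and the share of mitochondrially encoded transcripts (11.6 to 12% in Apc-knockout, 6.77 to 7.19% in OE-labelled libraries) all differed between the groups, and the series of library names cannot be told apart from genotype. The OE-labelled libraries varied more among themselves (biological coefficient of variation 17.2%, against 3.14% in Apc-knockout), and OE-labelled replicate 1 lay farthest from the Apc-knockout libraries on the first principal component. Pairs of Apc-knockout libraries differed by little more than counting error (chi-square per degree of freedom 1.2 to 1.37), and pairs of OE-labelled libraries by more (4.71 to 9.04). The edgeR fit estimated the spread of each gene from both groups together. All 10 intestinal epithelial markers examined were detected, at a summed level of 4890 to 5187 CPM in Apc-knockout and 6365 to 7190 CPM in OE-labelled libraries. Of these, 6 were called higher and 1, Cldn7, lower (log2 fold change -1.09). Of all tested genes, 16.5% were called higher and 12.7% lower. Of the other markers, 5 of 7 fibroblast, 3 of 7 immune, 2 of 5 endothelial and 1 of 7 muscle and neural genes had 0 counts in every library. Fibroblast markers summed to between 0.405 and 1.41 CPM over all libraries, and endothelial markers to between 0.405 and 1.38 CPM. The immune sum was 47.9 to 52.1 CPM in Apc-knockout and 66 to 80.2 CPM in OE-labelled libraries. The muscle and neural sum was 49.8 to 54.4 and 101 to 119 CPM in the same order. Csf1r and S100b contributed most, and both were called higher (log2 fold changes 0.68 and 1.14, edgeR adjusted p = 0.0061 and 0.000129). Cd68 (means of 15.6 CPM in Apc-knockout and 17.6 CPM in OE-labelled libraries) and Cd74 (3.7 and 4.3 CPM) were tested and not called. Ptprc had at most 2 counts, and Cd3e and Elavl4 had 0 in every library. The part of these differences in the results below was not tested.

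Of the 10 genes, Alkbh5 differed most. Its level in OE-labelled libraries was 2.42-fold lower, and Fto, the other eraser, had a log2 fold change of 0.12. In bulk RNA, fewer cells with a transcript and less of it per cell cannot be told apart. Mettl14 and Ythdc1 were lower and Ythdf1 and Ythdf2 higher, whereas Mettl3, Wtap, Virma, Ythdf3 and Fto did not pass the test. In all, 5 of the 10 genes were called (2 higher and 3 lower, edgeR quasi-likelihood test, Benjamini-Hochberg adjusted p below 0.05 over 10687 genes), where 29.2% of all tested genes were called, 16.5% as higher and 12.7% as lower. The excess of higher calls depended on scaling: of all calls, 49.9% were higher with DESeq2 size factors, 48.4% without mitochondrial genes and 63.8% with library totals. The 10 genes were not tested as a list. For 6 of the 10 genes no library of 1 group fell within the range of the other, against 45.7% of all tested genes. The median log2 fold change was -0.12 for the 10 genes and 0.04 for all genes tested. The count of 5 became 3 without Apc-knockout replicate 2 or without OE-labelled replicate 2, and 1, Alkbh5, without Apc-knockout replicate 3. Of all genes, 3118 were called, and 1893, 1837 and 1748 without Apc-knockout replicates 1, 2 and 3. With offsets for GC content and for exonic length, 3 and 2 of the 10 were called, against 23.1% and 24.1% of all genes tested.

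**Figure D1:**
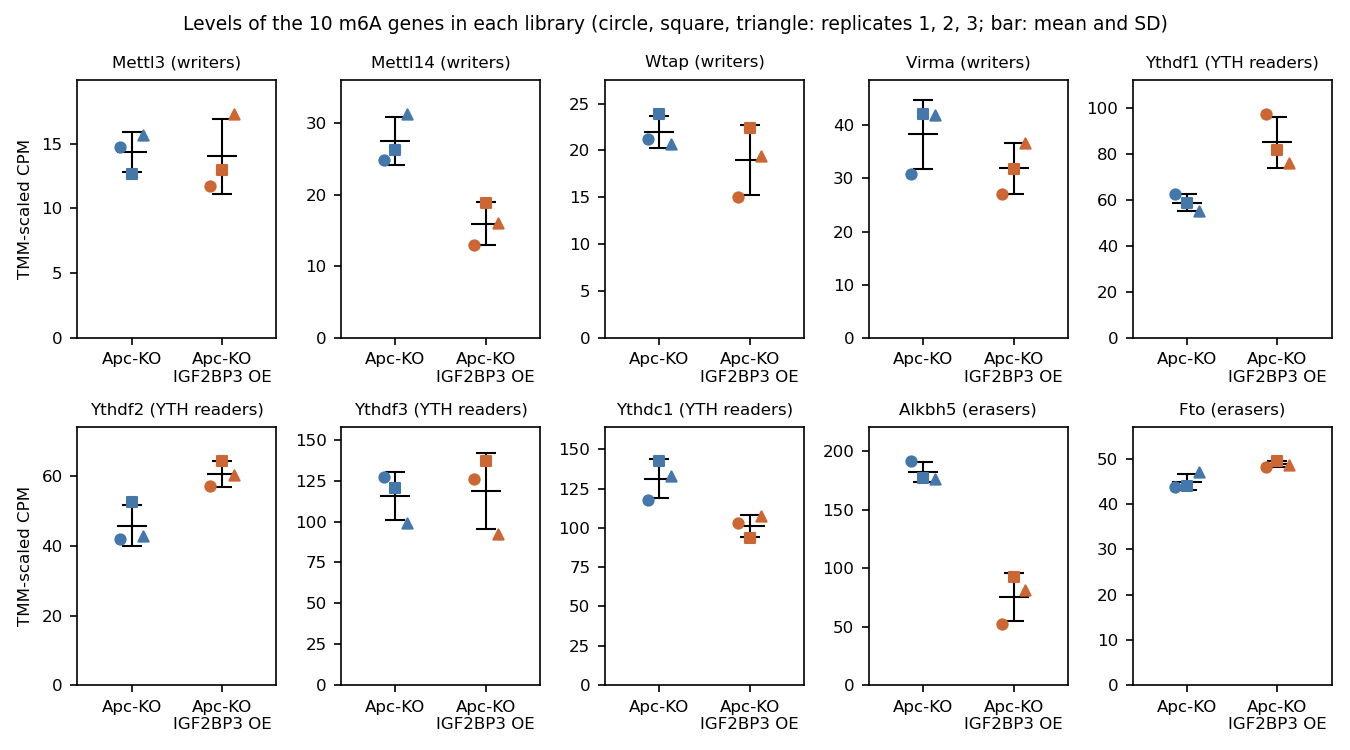
TMM-scaled CPM of the 10 genes (vertical axes, each starting at 0) in the 3 Apc-knockout (blue) and 3 OE-labelled (orange) libraries, with mean and SD as black bars. Alkbh5 falls from between 176 and 192 CPM to between 52.3 and 92 CPM, and Mettl3, Wtap, Virma and Ythdf3 overlap between the groups.

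Sequences around an annotated start are shown first for the 3 genes at the centre of the results. These genes are Alkbh5, which fell most, and the paralogues Ythdf1 and Ythdf2, which both rose. The sequences are RefSeq promoters in GRCm38.p6, running from 250 bases before to 50 bases after that start. Each is written on the gene's strand from 5′ to 3′. Capitals mark CACGTG, the E-box bound by MYC and related factors, searched because the study concerns MYC. It reads the same on both strands.
Alkbh5, plus strand, chr11:60537433-60537732: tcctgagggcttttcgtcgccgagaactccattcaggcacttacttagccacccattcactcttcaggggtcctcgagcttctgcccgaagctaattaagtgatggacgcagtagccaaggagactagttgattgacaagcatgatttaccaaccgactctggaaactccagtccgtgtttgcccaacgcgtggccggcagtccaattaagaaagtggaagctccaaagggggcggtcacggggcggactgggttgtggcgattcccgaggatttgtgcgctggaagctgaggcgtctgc
Ythdf1, minus strand, chr2:180920887-180921186: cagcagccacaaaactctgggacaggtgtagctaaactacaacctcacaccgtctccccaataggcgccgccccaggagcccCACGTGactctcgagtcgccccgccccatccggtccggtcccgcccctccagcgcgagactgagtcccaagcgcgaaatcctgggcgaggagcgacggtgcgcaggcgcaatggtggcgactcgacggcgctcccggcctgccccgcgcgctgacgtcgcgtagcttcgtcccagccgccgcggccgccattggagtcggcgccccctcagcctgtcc
Ythdf2, minus strand, chr4:132212207-132212506: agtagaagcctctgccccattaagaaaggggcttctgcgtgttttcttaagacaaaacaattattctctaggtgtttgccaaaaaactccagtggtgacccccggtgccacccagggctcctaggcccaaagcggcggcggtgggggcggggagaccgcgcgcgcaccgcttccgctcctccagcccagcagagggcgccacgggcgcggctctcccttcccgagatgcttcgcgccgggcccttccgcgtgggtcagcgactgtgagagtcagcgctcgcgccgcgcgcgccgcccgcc
CACGTG occurred once upstream of Ythdf1, with its first base 168 bases before the start, and in none of the other printed windows. Of the 7 genes with an entry (9 windows, 3 of them for Wtap), Ythdf1 was the only 1 with the motif. Over all 32851 promoters of this length, 7.15% held it. The 3 windows had 55.3% (Alkbh5), 70% (Ythdf1) and 66.3% (Ythdf2) G and C, against a median of 52.7% over all promoters. The RefSeq start of Alkbh5 lies 1302 bases inside the GENCODE gene, and the last bases of the window are in no GENCODE transcript of Alkbh5. The Alkbh5 window thus lies within the gene, and its lack of the motif describes that window only. The 3 RefSeq starts of Wtap also lie inside the GENCODE gene, by 1626, 1630 and 1910 bases. Mettl14, Virma and Ythdf3 had no entry. These matches describe the letters and show no binding.

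Among the writers, the transcript of Mettl14 was 1.72-fold lower in OE-labelled libraries, and that of Mettl3, its catalytic partner, was not called different. Mettl14 (ENSMUSG00000028114, minus strand, chr3:123368297-123386108 in GRCm38) was counted at 24.9, 26.3 and 31.3 CPM in Apc-knockout replicates 1, 2 and 3, and at 13, 18.9 and 16.1 CPM in OE-labelled replicates 1, 2 and 3. Every OE-labelled library lay below every Apc-knockout library. On the log2 scale the change was -0.78 with a standard error of 0.20 (adjusted p = 0.0127 by edgeR), on 32 to 68 counts per library. The call was lost in 3 of 20 alternatives, over which the edgeR, DESeq2 or limma adjusted p ran from 0.00287 to 0.0724: with an offset for GC content, with or without the replicate block (-0.56 in both), and without Apc-knockout replicate 3 (-0.68). The longest Mettl14 transcript holds 41.2% G and C, and log2 fold change rose with GC content over the 10268 genes coding for protein (Spearman rho 0.37; genes are not replicates).

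Mettl3 (ENSMUSG00000022160, minus strand, chr14:52294841-52305128) gave 14.7, 12.7 and 15.7 CPM in Apc-knockout libraries and 11.8, 13 and 17.3 CPM in OE-labelled libraries. The groups overlapped, with both the lowest and the highest value among OE-labelled libraries. Its fitted log2 change was -0.04 (95% interval -0.54 to 0.46, edgeR adjusted p = 0.921), on 27 to 41 counts per library, an interval that reaches about 0.5 on the log2 scale in either direction. Exons of Mettl3 overlap those of Tox4 on the opposite strand. Since the strand setting of the counting is not given, reads from the shared stretch could come from either gene.

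Wtap, the adaptor that brings the catalytic pair to nuclear speckles, and Virma, the large scaffold linked to methylation near stop codons, both overlapped between the groups. Wtap (ENSMUSG00000060475, minus strand, chr17:12966796-12994169) was counted at 21.2, 23.9 and 20.7 CPM in Apc-knockout and 15, 22.4 and 19.5 CPM in OE-labelled libraries. Only OE-labelled replicate 1 was well below the Apc-knockout values. This gave a log2 change of -0.21 (95% interval -0.65 to 0.23, edgeR adjusted p = 0.468), and it became 0.04 under the GC offset. Virma (ENSMUSG00000040720, plus strand, chr4:11485958-11550684) gave 30.9, 42.2 and 41.9 CPM in Apc-knockout and 27.1, 31.9 and 36.8 CPM in OE-labelled libraries. Its log2 fold change of -0.26 (95% interval -0.65 to 0.12, edgeR adjusted p = 0.286) did not pass, and Apc-knockout replicate 1 lay among the OE-labelled values.

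Of the cytoplasmic readers, Ythdf1 and Ythdf2 were higher in OE-labelled libraries and Ythdf3 was not called. Ythdf1 (ENSMUSG00000038848, minus strand, chr2:180904377-180920949) is a reader described as favouring translation. Its transcript rose from 62.7, 58.6 and 55.3 CPM in Apc-knockout to 97.6, 81.8 and 76.1 CPM in OE-labelled libraries. The lowest OE-labelled value was above the highest Apc-knockout value. The estimated log2 change was 0.53 with a standard error of 0.13 (adjusted p = 0.0107 by edgeR), a 1.45-fold rise. The call was lost in 3 of 20 alternatives (adjusted p from 0.00401 to 0.0639): under the exonic length offset (0.39), without Apc-knockout replicate 2 (0.53) and without Apc-knockout replicate 3 (0.49).

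Ythdf2 (ENSMUSG00000040025, minus strand, chr4:132184912-132212303), the reader best known for bringing methylated transcripts to deadenylation, was counted at 41.9, 52.5 and 42.9 CPM in Apc-knockout and 57.1, 64.5 and 60.5 CPM in OE-labelled libraries. The groups did not overlap, though Apc-knockout replicate 2 came close to OE-labelled replicate 1. On the log2 scale the change was 0.41 with a standard error of 0.14 (adjusted p = 0.0437 by edgeR), a 1.33-fold rise close to the threshold. It was lost in 8 of 20 alternatives (adjusted p from 0.0166 to 0.195), among them DESeq2 size factors (0.36) and the DESeq2 test (0.36), and without Apc-knockout replicate 1 (0.35), Apc-knockout replicate 3 (0.36) or OE-labelled replicate 2 (0.33).

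Ythdf3 (ENSMUSG00000047213, plus strand, chr3:16183212-16217037), described as working with the other 2 cytoplasmic readers, gave 127, 121 and 99.1 CPM in Apc-knockout and 126, 137 and 92.6 CPM in OE-labelled libraries. Replicate 3 was lowest in each group, and the groups overlapped throughout. Its fitted log2 change was 0.04 (95% interval -0.29 to 0.37, edgeR adjusted p = 0.868), and its sign changed with DESeq2 size factors (-0.002). Under the GC offset it was 0.33.

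Ythdc1, the nuclear reader, was 1.29-fold lower. It was counted at 118, 143 and 133 CPM in Apc-knockout and 103, 93.6 and 107 CPM in OE-labelled libraries, without overlap (ENSMUSG00000035851, plus strand, chr5:86804221-86836659). This gave a log2 change of -0.37 with a standard error of 0.12 (adjusted p = 0.0323 by edgeR). This call was lost in 7 of 20 alternatives (adjusted p from 0.00806 to 0.715). The change shrank to -0.08 under the GC offset and to -0.11 under the exonic length offset, and Ythdc1 had the lowest GC content (37.6%) and the longest exonic sequence (13651 bases) of the 10 genes. It also missed the threshold without Apc-knockout replicate 2 (-0.31), without Apc-knockout replicate 3 (-0.36) and without OE-labelled replicate 2 (-0.35). An exon of Ythdc1 overlaps the long noncoding RNA Gm43055 on the same strand, and Ythdc1 was the only 1 of the 10 genes with deposited counts ending in a fraction (256.5, 304.5, 287.5, 254, 237.5 and 253.5), so its level is uncertain.

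Of the erasers, Alkbh5 was called and Fto was not. Alkbh5 (ENSMUSG00000042650, plus strand, chr11:60536381-60558512), a nuclear dioxygenase that demethylates m6A, was counted at 192, 177 and 176 CPM in Apc-knockout libraries and at 52.3, 92 and 81.2 CPM in OE-labelled libraries. The Apc-knockout values were close together, and the highest OE-labelled value was far below the lowest of them. The group means were 182 ± 8.57 CPM and 75.2 ± 20.5 CPM (SD, n = 3). The estimated log2 change was -1.27 with a standard error of 0.17 (95% interval -1.64 to -0.91, adjusted p = 0.000315 by edgeR), and 1.27% of tested genes had a lower fold change. The call was kept in all 20 alternatives, with log2 fold changes from -1.48 to -1.12 and adjusted p from 1.83e-17 to 0.00491. Without OE-labelled replicate 1, the lowest of the libraries, the change was -1.12, the smallest of these. Alkbh5 rested on 129 to 416 counts per library, no annotated exon of another gene overlaps it, and, as for the other 9 of the 10, no separate gene's transcript matched its last 600 bases over at least 100 bases at 90% identity.

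Fto (ENSMUSG00000055932, plus strand, chr8:91313525-91668439), the first RNA demethylase described for this mark and also active on m6Am next to the cap, gave 43.8, 44.1 and 47 CPM in Apc-knockout and 48.2, 49.6 and 48.6 CPM in OE-labelled libraries. The groups did not overlap, but the difference was small. On the log2 scale the change was 0.12 (95% interval -0.16 to 0.40, edgeR adjusted p = 0.526), and it was 0.14 under the GC offset and 0.37 under the exonic length offset. Exons of 2 annotated genes overlap Fto on the opposite strand.

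**Figure D2:**
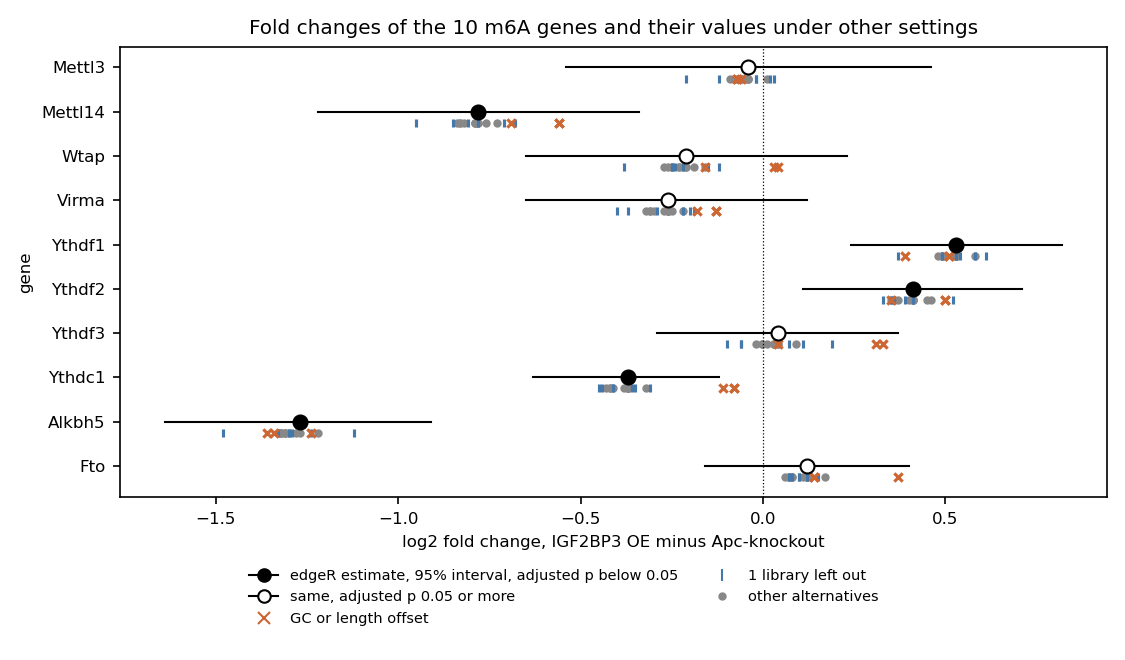
Log2 fold changes of the 10 genes, OE-labelled minus Apc-knockout (horizontal axis), with 95% intervals (lines; filled circles have an edgeR adjusted p below 0.05), and below each the values under the 20 alternatives. Alkbh5 stays between -1.48 and -1.12, while Ythdc1 moves to -0.08 under the GC offset.

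Ratios of counts within a library do not depend on how libraries are scaled, and were used to compare partners within a library. No GC offset was applied to them, and some partners differed in GC content. It was 41.2% in Mettl14 and 49.3% in Mettl3, and 38.4% in Ythdf3 against 49.1% in Ythdf1 and 46.1% in Ythdf2. With the offset, fitted log2 changes were -0.56 and -0.07 for Mettl14 and Mettl3, and -1.34 and 0.14 for Alkbh5 and Fto. They were 0.51, 0.5 and 0.33 for Ythdf1, Ythdf2 and Ythdf3. The part of GC content in the ratios was not tested. Mettl14 was counted 1.69, 2.07 and 2 times as often as Mettl3 in Apc-knockout libraries and 1.1, 1.45 and 0.927 times as often in OE-labelled libraries. The ratio was lower in every OE-labelled library than in every Apc-knockout library, with a log2 difference between the means of -0.74 (SE 0.21, exact permutation p = 0.1, adjusted over 6 ratios 0.15). The smallest p that 3 against 3 libraries allow is 0.1, so no ratio could pass. Alkbh5 to Fto gave ratios of 4.38, 4.02 and 3.75 in Apc-knockout and 1.08, 1.86 and 1.67 in OE-labelled libraries, or 2.7-fold lower (log2 difference -1.43, SE 0.25, exact permutation p = 0.1, adjusted 0.15). This was the largest of the 6 differences.

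The ratio of Ythdf1 to Ythdf3 was 0.493, 0.486 and 0.558 in Apc-knockout and 0.772, 0.596 and 0.822 in OE-labelled libraries (log2 difference 0.50, SE 0.16, exact permutation p = 0.1, adjusted 0.15). Ythdf3 to Ythdf2 went the other way (3.03, 2.29 and 2.31 against 2.21, 2.13 and 1.53), with a log2 difference of -0.39 (SE 0.21, exact permutation p = 0.1, adjusted 0.15). Here the groups were separated only by the gap between 2.29 and 2.21. Ythdf1 to Ythdf2 differed by 0.11 (SE 0.19, exact permutation p = 0.7) and Virma to Wtap by -0.03 (SE 0.19, exact permutation p = 0.9), and both ratios overlapped between the groups.

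**Figure D3:**
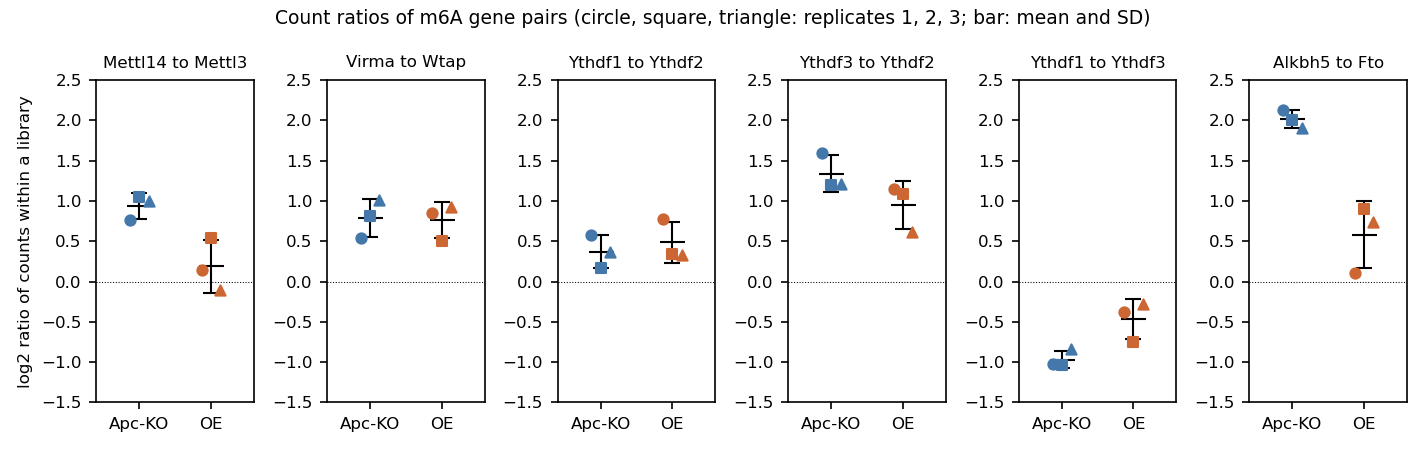
Log2 ratio of counts of 6 gene pairs within each library (vertical axis; points are libraries, bars mean and SD). As a linear ratio, Alkbh5 to Fto lies between 3.75 and 4.38 in Apc-knockout and between 1.08 and 1.86 in OE-labelled libraries, and Virma to Wtap overlaps between the groups.

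The rest of the m6A pathway was described from 6 lists of 65 genes, of which 63 were tested and 20 called (4 higher and 16 lower), or 31.7% against 29.2% of all genes tested. The count fell to between 10 and 13 when any Apc-knockout library or OE-labelled replicate 2 was left out. Of the other 4 subunits of the writer complex, 3 were lower, 0 higher and 1 was not called, with a median log2 fold change of -0.53. Of all tested genes, 12.7% were called lower and 16.5% higher. Zc3h13, which holds the complex in the nucleus, was counted at 169 ± 2.89 CPM in Apc-knockout and 90.2 ± 11.7 CPM in OE-labelled libraries (mean ± SD, n = 3). On the log2 scale this was -0.91 with a standard error of 0.12 (adjusted p = 0.000315 by edgeR), called in all 20 alternatives. Cbll1, the ubiquitin ligase of the complex also known as Hakai, was lower, at a log2 change of -0.63 with a standard error of 0.16 (adjusted p = 0.0127 by edgeR). With or without the replicate block, its call was lost under the GC offset (-0.38 without, edgeR adjusted p = 0.13, in a range from 0.00409) and without Apc-knockout replicate 2 (-0.57) or 3 (-0.63). Rbm15b, an adaptor that binds RNA for the complex, changed by -0.44 with a standard error of 0.16 (adjusted p = 0.0495 by edgeR), but 12 of 20 alternatives did not keep the call (-0.53 to -0.38, adjusted p as high as 0.177), among them the fits without any 1 Apc-knockout library and without OE-labelled replicate 2. Its exons overlap Manf on the same strand and Dcaf1 on the opposite strand. Its paralogue Rbm15 had a log2 fold change of -0.36 (edgeR adjusted p = 0.156).

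The next list held 6 genes, methyltransferases that act outside this complex and 1 cofactor. The cofactor was lower and the other 5 were not called, or 16.7% called against 29.2% of all tested genes. Trmt112, the cofactor that stabilises the ribosomal RNA methyltransferase METTL5 among other enzymes, had a log2 fold change of -0.59 with a standard error of 0.13 (adjusted p = 0.0062 by edgeR) and was called in all 20 alternatives. Exons of 2 genes overlap it on the opposite strand and 2 pseudogenes share its 3′ end, so its counts are uncertain. Mettl16, which methylates a hairpin in Mat2a messenger RNA, had a log2 fold change of -0.40 (edgeR adjusted p = 0.0805).

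Of 13 other proteins described as binding m6A, 12 were tested, 7 were lower and 1 was higher, where 12.7% of all tested genes were lower and 16.5% higher (median log2 fold change -0.50), and Igf2bp3 was below the floor. The lower genes included Ythdc2, the YTH protein with a helicase domain, at 13.7 ± 1.51 and 6.81 ± 1.52 CPM (SD, n = 3; log2 fold change -1.01, edgeR adjusted p = 0.0121), and the IGF2BP3 paralogues Igf2bp1 (-0.82, edgeR adjusted p = 0.0111) and Igf2bp2 (-0.58, edgeR adjusted p = 0.0308). These 3 were picked with their values in view. The call was lost for Ythdc2 without Apc-knockout replicate 1 (-0.94), for Igf2bp1 without Apc-knockout replicate 2 (-0.75), and for Igf2bp2 in 7 of 20 alternatives (-0.48 to -0.62), 5 of them fits that left out any 1 of the Apc-knockout libraries or OE-labelled replicate 2 or 3. Prrc2a was lower by a log2 change of -0.91 with a standard error of 0.13 (adjusted p = 0.000499 by edgeR), and Fxr1, a relative of the fragile X protein, of -0.53 with a standard error of 0.12 (adjusted p = 0.00648 by edgeR). The call for Fxr1 was lost under the GC offset whether or not the replicate block was fitted (-0.26 if not, edgeR adjusted p = 0.189, in a range from 2.83e-05). Snd1, a Tudor-domain protein, was the gene that rose, from 94.9 ± 4.05 to 165 ± 18.6 CPM (mean ± SD, n = 3), or, on the log2 scale, by 0.80 with a standard error of 0.12 (adjusted p = 0.000592 by edgeR). The calls for Prrc2a and Snd1 were kept in all 20 alternatives.

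Of 17 partners of YTH proteins, which include the CCR4-NOT deadenylase that YTHDF2 recruits, 3 were lower, 1 was higher and 13 were not called (median log2 fold change -0.01). The share called was 23.5%, against 29.2% of all tested genes. Cnot3 had a log2 fold change of -0.64 (edgeR adjusted p = 0.00811), Cnot1, the scaffold of the deadenylase, -0.55 (edgeR adjusted p = 0.0143) and Pop1, a subunit of the RNase P and MRP enzymes, -0.92 (edgeR adjusted p = 0.0115). The nuclease subunits Cnot7 and Cnot8 had values of 0.32 (edgeR adjusted p = 0.111) and 0.15 (edgeR adjusted p = 0.557). Cnot1 missed the threshold under the exonic length offset (-0.23) and without Apc-knockout replicate 1 (-0.52) or 2 (-0.53), and Pop1 without Apc-knockout replicate 1 (-0.87) or 3 (-0.89). The gene that was higher, Upf1, an RNA helicase of decay, had a log2 fold change of 0.39 (edgeR adjusted p = 0.0447) that was lost in 13 of 20 alternatives (0.11 to 0.48), including every fit that left out an Apc-knockout library and those without OE-labelled replicate 1 or 2. It was chosen after its value was seen.

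The supply of S-adenosylmethionine, the methyl donor, was the subject of the next list, with 1 of 7 genes higher, 2 lower and 4 not called, or 42.9% called against 29.2% of all tested genes. Mat2a, the enzyme that makes the donor, was counted at 225, 207 and 221 CPM in Apc-knockout and 374, 318 and 309 CPM in OE-labelled libraries. All OE-labelled values were higher. Its fitted log2 change was 0.62 with a standard error of 0.11 (adjusted p = 0.0015 by edgeR), called in all 20 alternatives. Mtr, methionine synthase, changed by -0.85 (edgeR adjusted p = 0.0154), a call lost without Apc-knockout replicate 2 (-0.76), Apc-knockout replicate 3 (-0.80) or OE-labelled replicate 2 (-0.82). Ahcyl1, related to the hydrolase that clears the product of methylation, changed by -0.36 (edgeR adjusted p = 0.0238), a call lost in 7 of 20 alternatives (-0.29 to -0.40), among them the fits without any 1 Apc-knockout library or without OE-labelled replicate 2.

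**Figure D4:**
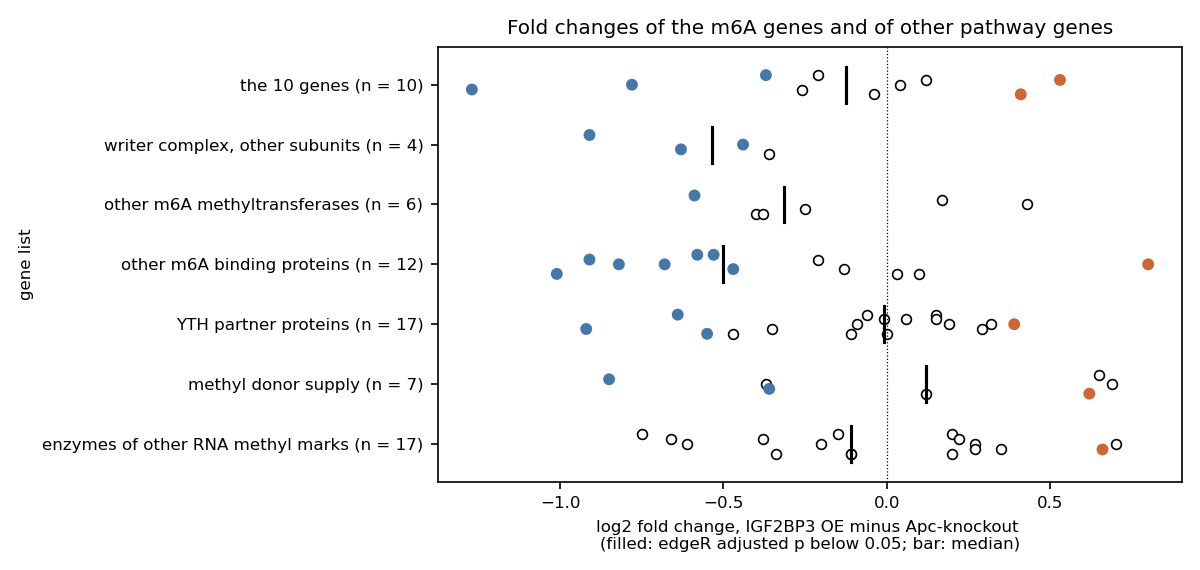
Log2 fold changes (horizontal axis) of the 10 genes and of the tested genes of 6 pathway lists, with the median of each as a bar; filled points have an edgeR adjusted p below 0.05. The medians of the other writer subunits and of the other binding proteins lie at -0.53 and -0.50, and the 10 genes spread from -1.27 to 0.53.

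For Alkbh5, which had the smallest p of the 10 genes, the other genes with the most similar log2 CPM over the 6 libraries were looked up among the 5155 named genes whose average log2 CPM was 5 or more. They were Tcea1, a transcription elongation factor (Pearson r = 0.999), Tmem184c (0.996) and Zfp36l1, an RNA-binding decay factor (0.996). The 6 libraries share 2 groups and their depths, so these values describe a common pattern of levels only. Their log2 fold changes were -0.78, -0.52 and -0.58, given as a description, since genes chosen to follow Alkbh5 over these libraries had to be lower in the OE-labelled group.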

How the data were processed

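Per the labels' protocols, total RNA went into a Lexogen QuantSeq FWD kit, which reads the 3′ end of a transcript, so longer transcripts are not expected to give more counts. STAR, HTSeq and the build GRCm38 (mm10) are named in the submitters' processing notes. Their settings, strand and annotation are not given in the sources used here. The authors deposited estimated counts per gene, unnormalized, of which 3.1% of the values above 0 held a fraction, and these were rounded here. Columns were matched to samples by library name. Groups and replicate numbers came from the sample titles.

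OE-labelled was compared with Apc-knockout over all genes with edgeR 4.0.16 (filterByExpr, TMM, quasi-likelihood F test, no covariate, Benjamini-Hochberg over 10687 genes) in R 4.3.3. Standard errors were derived from the estimate and its F statistic. CPM uses TMM-scaled library sizes of the genes kept. Gene positions, GC content of the longest transcript and overlaps came from GENCODE M21 (99.5% of identifiers found). The alternatives used DESeq2 1.42.0 and limma 3.58.1 (voom), other filters and scalings, equal depth, loess offsets (span 0.5) and each library left out. The edgeR and DESeq2 fits were also run on simulated counts. These had the same spread in both groups, unlike the data, so they cannot show how the fits behave here. The genes and lists were chosen with earlier results of these data known, and lists name up to 3 called genes with the smallest p. Rbm15, Mettl16, Cnot7 and Cnot8 were named after their values were seen. The planned test assumed whole counts.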

Additional observations from a re-analysis of the deposited data

How the results depend on the processing

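The alternatives gave 200 values for the 10 genes. Both sign and call held in 168, the call was lost in 21, and the sign turned in 11, which belonged to Mettl3, Wtap and Ythdf3. Mettl3 ran from -0.21 to 0.03 with single libraries left out and became 0.01 with library totals, and 0.03 and 0.02 without Apc-knockout replicate 3 or OE-labelled replicate 1. Wtap became 0.04 with the GC offset and 0.03 with the replicate block and GC offset. Ythdf3 ran from -0.1 to 0.19 with single libraries left out and became -0.002 with DESeq2 size factors and with the DESeq2 test, -0.02 without mitochondrial genes, and -0.06, -0.06 and -0.1 without Apc-knockout replicate 3, OE-labelled replicate 1 or OE-labelled replicate 2. Of the 10 genes, 5 were called with the replicate block, as without it. The number was 3 with the GC offset, 2 with the exonic length offset, 3 with the replicate block and GC offset and 1 at an adjusted p below 0.01, and 1 to 5 when single libraries were left out. The pathway lists gave 8 called genes at an adjusted p below 0.01, and 10 to 24 with single libraries left out. All genes called numbered 3118, 3112 with the replicate block, 1578 at an adjusted p below 0.01, and 1748 to 3532 with single libraries left out. They numbered 2469 (23.1%) with the GC offset, 2572 (24.1%) with the exonic length offset and 2701 (25.3%) with the replicate block and GC offset. Of 520 values of 26 other named genes, sign and call held in 430, the call was lost in 89 and gained in 1 (Mettl16). Equally numbered libraries were not treated as pairs in the main fit. The deviations of replicates 1, 2 and 3 from their group means correlated at 0.097, 0.018 and 0.069 between the groups. The mean was 0.062 for equal and -0.031 for unequal numbers. Apc-knockout replicates 1 and 3 correlated best with their own number, and replicate 2 with OE-labelled replicate 3. The replicate block ended the call of Rbm15b (-0.44, edgeR adjusted p = 0.0689) and of no other gene followed under the alternatives.

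With single libraries left out, the log2 difference of the ratio ran from -0.92 to -0.59 for Mettl14 to Mettl3, -0.16 to 0.1 for Virma to Wtap, -0.03 to 0.22 for Ythdf1 to Ythdf2, -0.48 to -0.22 for Ythdf3 to Ythdf2, 0.41 to 0.64 for Ythdf1 to Ythdf3 and -1.59 to -1.2 for Alkbh5 to Fto. The sign changed for Virma to Wtap without Apc-knockout replicate 3 (0.08) or OE-labelled replicate 2 (0.10), and for Ythdf1 to Ythdf2 without OE-labelled replicate 1 (-0.03). Of the 10 genes, Mettl3, Mettl14 and Wtap had the fewest counts, 27 to 68 per library. The cause of the changes under the GC and length offsets was not tested.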

Other observations

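Enzymes and binders of other RNA methyl marks formed a further list of 18 genes, of which 17 were tested, 1 was higher, 0 were lower and 16 were not called, with a median log2 fold change of -0.11. The share called was 5.88%, against 29.2% of all genes tested. The gene that was higher, Alkbh3, a relative of Alkbh5 that acts on 1-methyladenosine and 3-methylcytosine, was counted at 16.1 ± 3.16 CPM in Apc-knockout and 25.4 ± 0.925 CPM in OE-labelled libraries (mean ± SD, n = 3). On the log2 scale this was 0.66 with a standard error of 0.20 (adjusted p = 0.0261 by edgeR). The call did not hold in 7 of 20 alternatives (adjusted p as high as 0.121), among them the fits without Apc-knockout replicate 1 (0.55), Apc-knockout replicate 3 (0.60) or OE-labelled replicate 2 (0.66), and its exons overlap 1 gene on each strand. The tRNA 5-methylcytosine enzyme Nsun2 was at 147 ± 2.47 and 136 ± 23.2 CPM (SD, n = 3; log2 fold change -0.11, edgeR adjusted p = 0.542), and the abundant RNA-binding protein gene Ybx1 at 1128 ± 52.2 and 981.5 ± 36.6 CPM (SD, n = 3; log2 fold change -0.20, edgeR adjusted p = 0.111). Nsun2 and Ybx1 were chosen after their values were seen, and Ybx1 has 4 pseudogenes with a similar 3′ end.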
